A study of Mus musculus with 5 samples.

Results

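The heat shock proteins and the DNAJ cochaperones were compared between skmNrip1-/- and WT control skeletal muscle. The genes were taken by name, as every row of the table whose symbol begins with Hspa, Hspb, Hsph, Dnaja, Dnajb or Dnajc and a digit, or with Hsp90. The rule left out 3 genes, Hspa5, Hspa9 and Dnajc19, which leaves 62 of the 17015 genes in the table. They comprise 11 Hsp70 genes, 1 Hsp110 gene, 3 Hsp90 genes, 7 small heat shock protein genes, 4 DNAJA genes, 11 DNAJB genes and 25 DNAJC genes. RNA-seq was performed on tibialis anterior (TA) muscle, a fast-twitch muscle, of sedentary male mice 8 weeks of age. The skmNrip1-/- mice carry Nrip1 fl/fl alleles and a Cre recombinase driven by the myogenin promoter, which is active in differentiating skeletal muscle cells, and WT control mice were Cre-negative littermates from the same crosses of C57BL/6J and C57BL/6JN animals. Cre removes exon 4, which holds the coding sequence of RIP140, the transcriptional coregulator that Nrip1 encodes, and mice of both groups were anesthetized with pentobarbital before tissue removal. Labels give 3 libraries for WT control and 2 for skmNrip1-/-, whereas the legend of the study gives 3 mice per group. Nothing in the labels ties the libraries to separate animals, so the p-values measure the spread between these libraries.

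Chaperones bind unfolded or partly folded proteins and keep them from aggregating. Hsp70 proteins do so in cycles of ATP hydrolysis, DNAJ proteins bring them clients and stimulate that hydrolysis, Hsp110 proteins exchange the nucleotide, and Hsp90 proteins act on clients at a later stage of folding. The small heat shock proteins hold unfolded proteins without ATP and, in muscle, sit at the sarcomere and the cytoskeleton, where contraction damages proteins. Heat and other stress induce part of these genes through heat shock factor 1, while others are made at all times.

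Values are FPKM (fragments per kilobase of transcript, made comparable across libraries of different size), which are per length and can be compared between genes. A log2 fold change here is the mean of log2(FPKM + 0.1) in the libraries labelled skmNrip1-/- minus that in WT control, which understates the change of genes with low FPKM. It is given with its standard error (SE) and a p-value from limma, adjusted by the Benjamini-Hochberg method across 12148 genes, those averaging 0.5 FPKM or more. Calls required both an adjusted p no higher than 0.05 and a fold change no smaller than 1.2. Of the 62 genes, 58 reached that average. Dnajb7, Dnajb13, Dnajc6 and Dnajc22 did not, with at most 0.211 FPKM in any library, and Dnajb7 was listed at 0 in skmNrip1-/- replicate 1. With 3 libraries in one group and 2 in the other there are 10 splits per gene, so an exact one-sided permutation test cannot give a p below 0.1. The sum of FPKM was 969144 to 1144714.5 in the WT control libraries and 1286254 and 1288038 in those labelled skmNrip1-/-. The number of fragments is not in the table, and absolute depth is therefore unknown. The targeted gene, Nrip1, had 4.64, 7.69 and 6.55 FPKM in the WT control libraries and 25.3 and 22.5 FPKM in those labelled skmNrip1-/- (log2 fold change 1.94, SE 0.21, adjusted p = 0.0261). The targeted gene thus runs against its label, and every direction below refers to the libraries as labelled. With 1 value per gene in the table, loss of exon 4 itself was not tested. All 6 skeletal muscle markers examined, among them Acta1, Ckm and Des, were present in every library. Because the RNA is from whole muscle, fewer cells of a type and less RNA per cell cannot be told apart.

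No chaperone gene of the 58 was called higher or lower. In simulated data the fit called 54 of 96 genes changed by 1 log2 unit, so the lack of a call does not show that a gene was unchanged. Among all genes tested, limma called 0.37% higher and 0.0823% lower. The lowest adjusted p was 0.124, for Hspa1b. Before adjustment, 3 of the 58 genes were higher at a p of 0.05 or less (Dnaja3, Hspa8 and Dnajc15) and 4 were lower (Hspa1b, Hspa1l, Hspa1a and Hspb1), which is 5.17% and 6.9% of them. The same p was reached by 6.57% of all genes in the higher direction and by 5.33% in the lower direction, so these counts are near the background. The log2 fold changes ranged from -0.86 for Hspa1l to 0.58 for Hspa12a, with 22 above 0, 36 below 0 and a median of -0.03. Across all genes tested the median was -0.00. For 43 of the 58 genes the log2 fold change lay within 0.25 of 0.

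Both skmNrip1-/- libraries were above every WT control library in 8 of the 58 genes (13.8%) and below every WT control library in 15 (25.9%). Groups failed to overlap in the same way in 15.8% of all genes (higher) and 14.4% (lower). The 8 higher genes were Hspa8, Hspa12a, Dnaja3, Dnajb6, Dnajc13, Dnajc15, Dnajc25 and Dnajc28. The 15 lower genes were the Hsp70 genes Hspa1a, Hspa1b and Hspa1l, the small heat shock genes Hspb1 and Hspb6, Hsp90b1, and the DNAJ genes Dnaja4, Dnajb1, Dnajb2, Dnajb9, Dnajb11, Dnajb12, Dnajc3, Dnajc4 and Dnajc21. These directions depend on how the libraries are scaled. When FPKM were rescaled to TPM, the median of all genes moved to -0.29 on the log2 scale, 0 chaperone genes were higher without overlap and 32 were lower, against 2.8% and 49.6% of all genes. Relative to that shifted median, 23 of the 58 genes were above and 35 below it, close to the 22 and 36 of the deposited scaling. Hspa8, Dnaja3 and Dnajc15 lay 0.35, 0.38 and 0.36 above the shifted median, and Hspa1a, Hspa1b and Hspa1l 0.63, 0.76 and 0.86 below it.

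**Figure D1:**
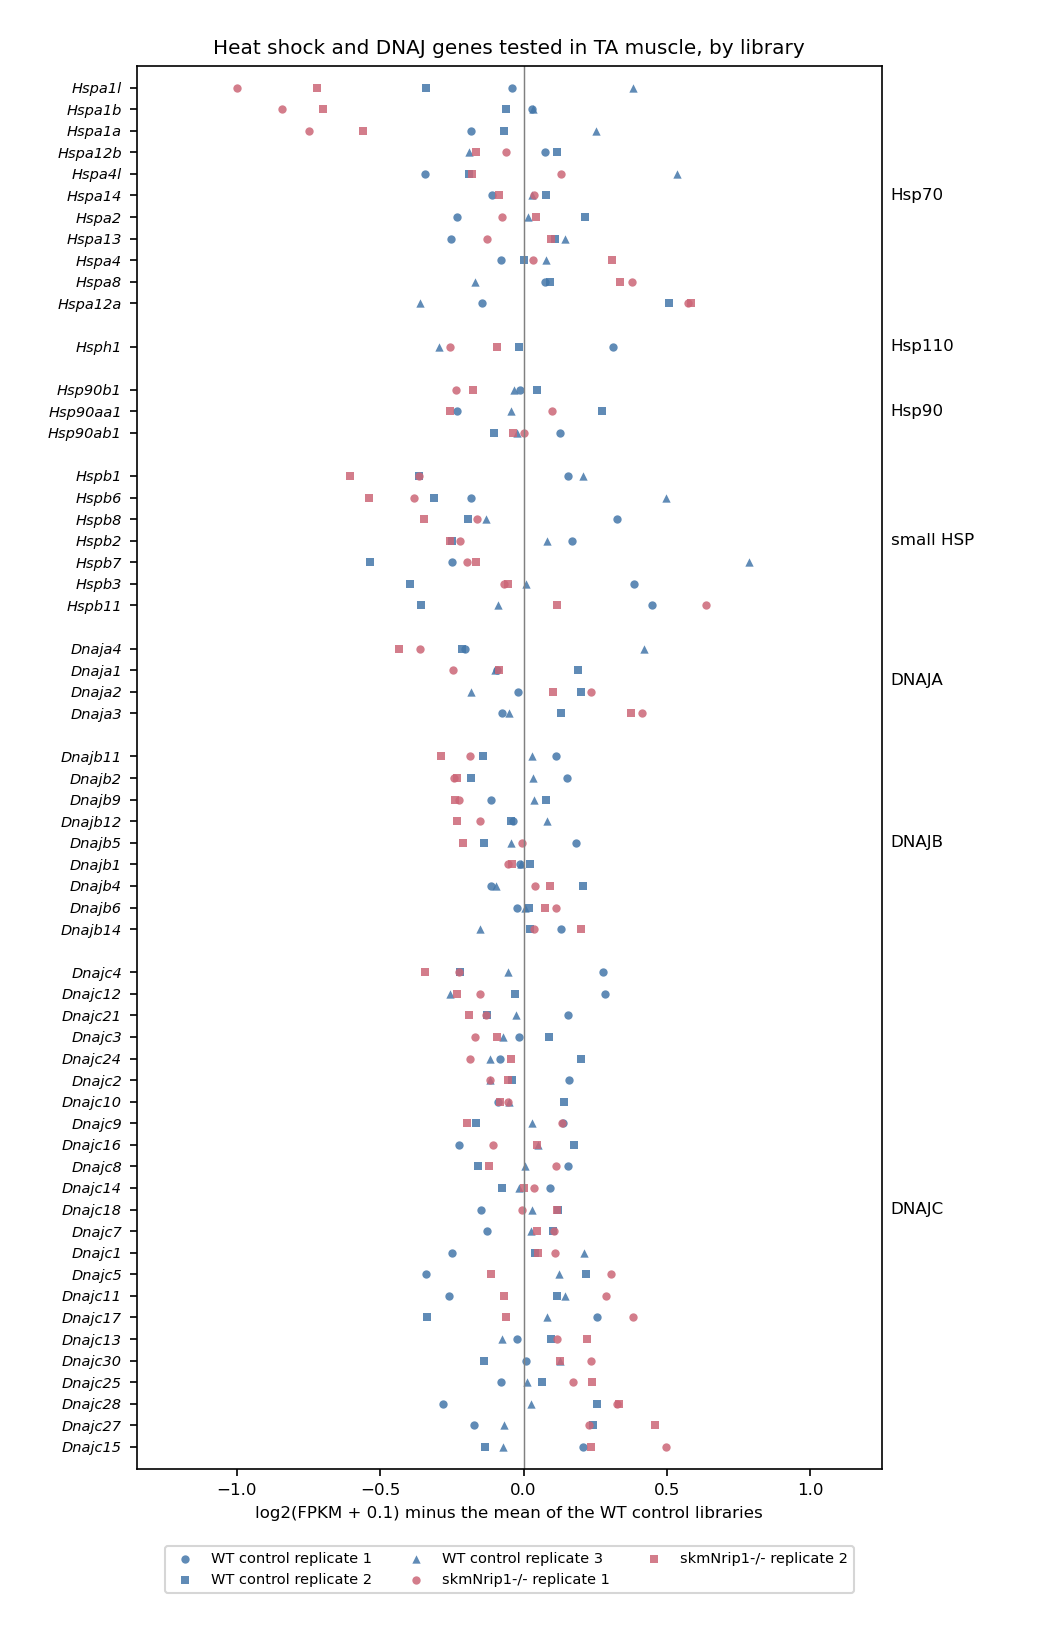
Each row is 1 of the 58 genes tested and each point 1 library, plotted as log2(FPKM + 0.1) minus the mean of the 3 WT control libraries (blue, WT control; red, skmNrip1-/-; marker shape, replicate). Hspa1l, Hspa1b and Hspa1a lie left of every WT control library in both red libraries, Hspa8, Hspa12a and Dnaja3 lie to the right, and most other genes stay within 0.5 of 0.

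In RNA abundance, 3 genes made up much of the whole set. Hspb6, Hspa8 and Hsp90ab1 together held between 49.2% and 51.5% of the summed chaperone FPKM in each of the 5 libraries. Next in order of mean FPKM came Hspb7 (224), Hspb1 (146), Dnaja2 (145), Hspb8 (113) and Hspb2 (83.3). Summed over all 62 genes, the FPKM came to 3364, 3090 and 3844 in WT control and to 3246 and 3075 in skmNrip1-/-. The groups overlap in this sum, and WT control replicate 3 was the highest.

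Within the Hsp70 family on the deposited scaling, the constitutive gene and the stress-inducible genes stood on opposite sides of 0. Hspa8, which encodes Hsc70, the cytosolic Hsp70 made at all times, had 466, 472 and 393 FPKM in WT control and 575 and 559 FPKM in the libraries labelled skmNrip1-/-. Both of the latter were above every control library, and the log2 fold change was 0.36 (SE 0.13, adjusted p = 0.344). Without WT control replicate 3, its lowest library, the log2 fold change was 0.27 and the unadjusted p was 0.0824. After rescaling to TPM, the log2 fold change of Hspa8 was 0.06 and its groups overlapped, although it lay 0.35 above the shifted median of all genes. Hspa8 set the level of its family, since the summed FPKM of the 11 Hsp70 genes on the deposited scaling was 540, 550 and 477 in WT control and 646 and 638 in skmNrip1-/-.

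Hspa1a and Hspa1b encode the 2 nearly identical forms of the heat-inducible Hsp70, and Hspa1l encodes a related protein best known from the testis. Hspa1b had 2.49, 2.33 and 2.50 FPKM in WT control and 1.32 and 1.46 FPKM in skmNrip1-/- (log2 fold change -0.77, SE 0.15, adjusted p = 0.124). Hspa1a had 1.61, 1.75 and 2.22 FPKM against 1.06 and 1.22 FPKM (-0.65, SE 0.20, adjusted p = 0.284). Both genes were low in TA, and in both the groups were fully apart. Hspa1l was the most abundant of the 3, with 12.6, 10.2 and 16.9 FPKM in WT control and 6.41 and 7.80 FPKM in skmNrip1-/- (-0.86, SE 0.22, adjusted p = 0.224). Leaving out any 1 library kept all 3 genes below 0, and no adjusted p under 0.05 was reached by them under any alternative tried. The sum of the 3 genes was 0.462% to 0.561% of the chaperone FPKM in WT control and 0.271% to 0.341% in skmNrip1-/-. The ratio of Hspa8 to that sum was 27.9, 33.1 and 18.2 in WT control and 65.5 and 53.3 in skmNrip1-/-, a ratio taken within each library and therefore free of the scaling between libraries. It was formed from genes already seen to differ in opposite directions, so it is not separate support for that difference.

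**Figure D2:**
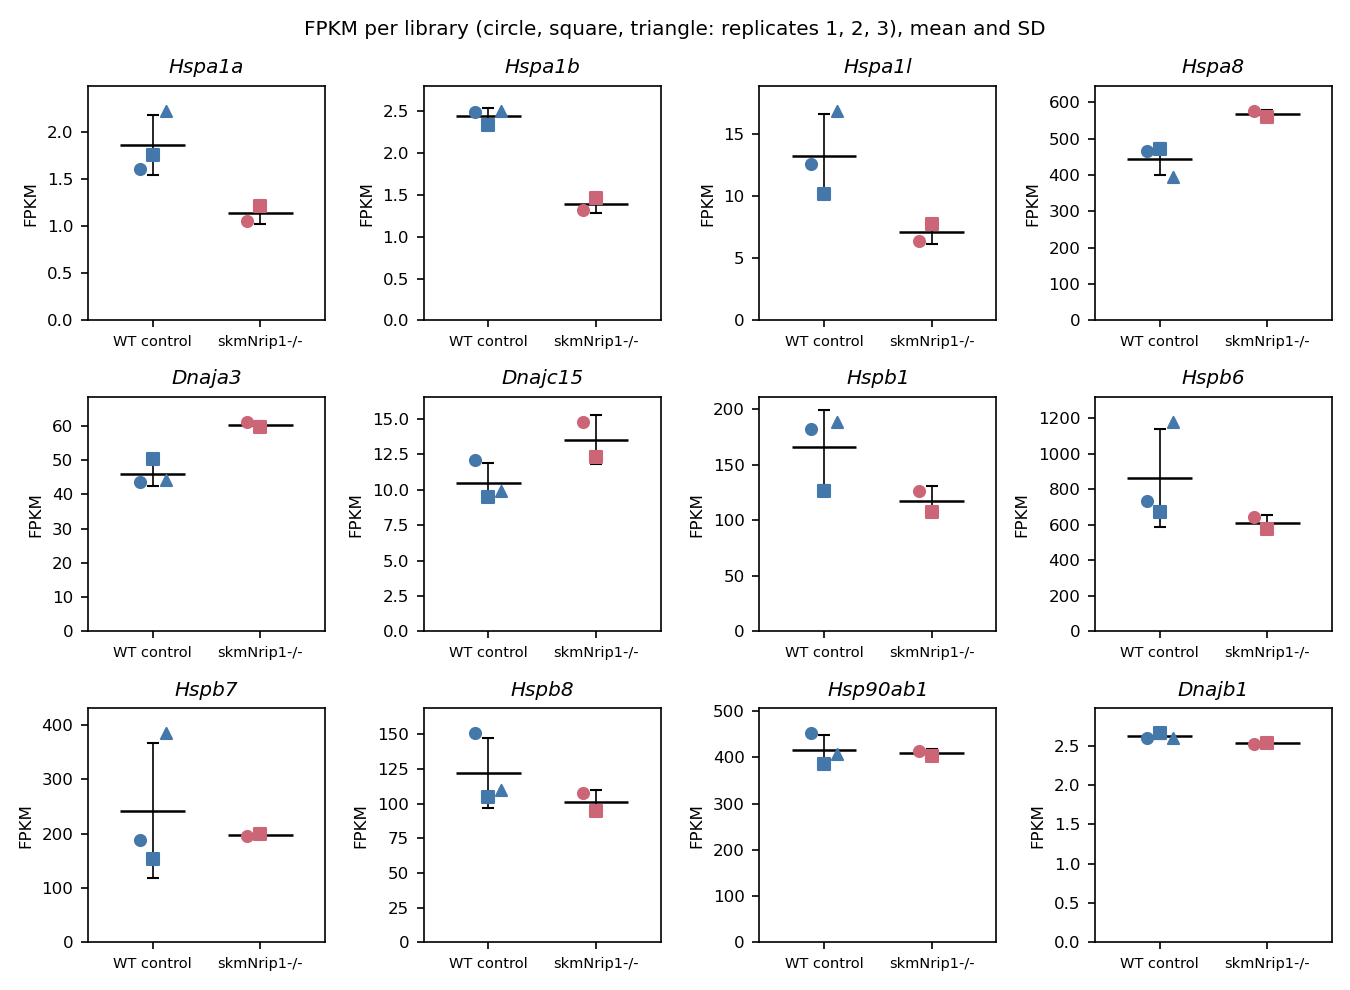
FPKM per library of 12 genes in WT control and skmNrip1-/- TA, with the mean (horizontal line) and SD (error bar), each axis starting at 0. Hspa1a, Hspa1b and Hspa1l were lower and Hspa8 and Dnaja3 higher in both skmNrip1-/- libraries, while WT control replicate 3 (triangle) stood far above the others in Hspb6 and Hspb7.

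The 3 Hspa1 genes are neighbours on chromosome 17 of the mouse. By GENCODE M21 on GRCm38, Hspa1b lies on the minus strand at 34956436 to 34959238, Hspa1a on the minus strand at 34969190 to 34972156, and Hspa1l on the plus strand at 34972703 to 34979285, with 546 bases between the starts of Hspa1a and Hspa1l. Hspa1a and Hspa1b each have a single exon, and their coding sequences are identical at 1918 of 1929 aligned positions (99.4%), whereas Hspa1a and Hspa1l share 82.7%. How fragments were split between Hspa1a and Hspa1b is therefore uncertain, and their 2 values should be read together. Another annotated gene, Gm20481, lies on the opposite strand over Hspa1a, and an antisense gene, Gm10501, overlaps the end of Hspa1l. Neither is a row of the table, and since strand use in counting is not stated, fragments of a gene and of its partner on the other strand cannot be told apart.

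The lower values were not shared by every gene nearby. Within 50000 bases on either side, 8 genes are in the table and 7 were tested, the 3 Hspa1 genes included. Of these 7, 4 were lower without overlap, the Hspa1 genes and Vwa7, and none was higher. Among all genes tested, 14.4% were lower and 15.8% higher without overlap. The 3 Hspa1 genes set this window, so only the other genes tested describe their surroundings. Neu1 (-0.13), Lsm2 (0.03) and Vars (-0.20) overlapped between the groups, and Vwa7 was at -0.21 (SE 0.12, adjusted p = 0.553). Lsm2, the next gene after Hspa1l, had 9.81, 6.77 and 8.22 FPKM in WT control and 8.42 and 8.24 FPKM in skmNrip1-/-.

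**Figure D3:**
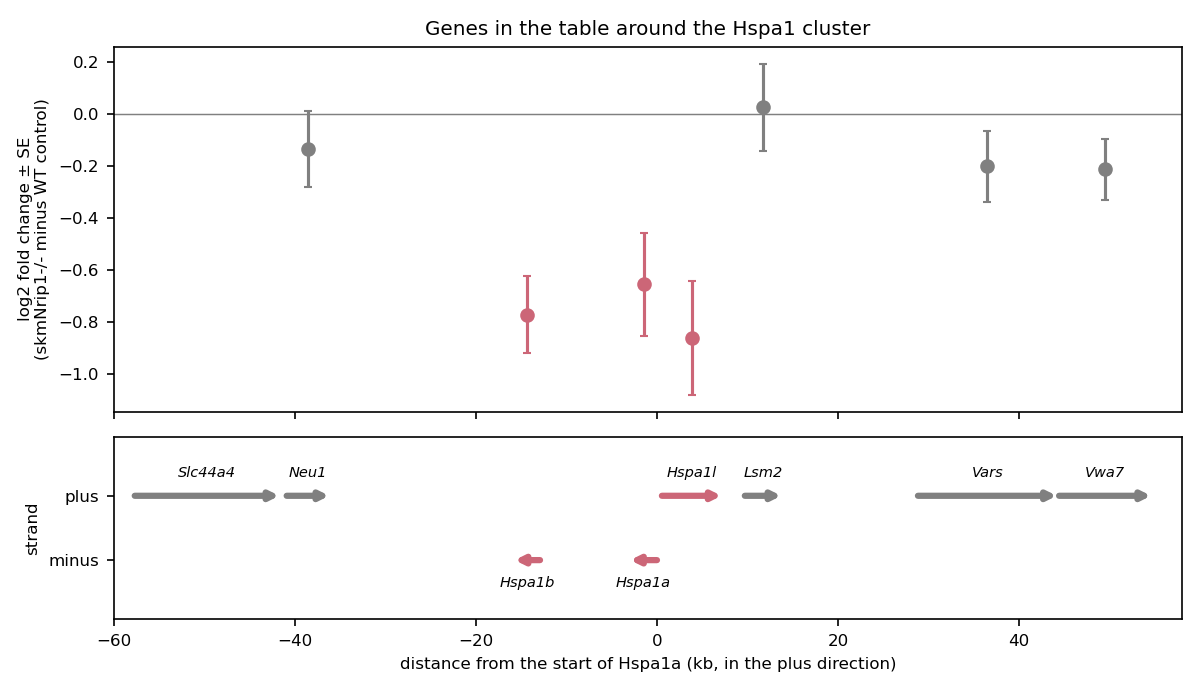
Upper panel, log2 fold change with SE (skmNrip1-/- minus WT control) of the tested genes around the Hspa1 cluster, placed at the middle of each gene. Lower panel, the genes and their strands by distance from the start of Hspa1a in kb, with the 3 Hspa1 genes in red between -0.65 and -0.86 and their tested neighbours in gray between -0.21 and 0.03.

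Heat shock factors bind repeats of the unit GAA and its inverse, and the promoters of the members were searched for the heat shock element GAANNTTC or TTCNNGAA. Both read the same on either strand, and the longer form joins 3 units so that both 8-letter forms overlap. RefSeq promoters on GRCm38.p6, from 250 bases before to 50 bases after the start, were matched by symbol for 50 of the 62 genes. An element was present in 13 of these genes (26.0%) and in 17.0% of all 27025 genes with a promoter. The 3-unit form was present in 2 genes, Dnajb6 and Hsph1 (4.0%), against 0.662% of all genes. The following stretches, from 130 to 31 bases before the start, are shown for the genes whose groups did not overlap and whose element lies in that window, 5′ to 3′ on the strand of the gene, with the element in capitals.
Hspa1a, chr17:34972187-34972286, minus strand: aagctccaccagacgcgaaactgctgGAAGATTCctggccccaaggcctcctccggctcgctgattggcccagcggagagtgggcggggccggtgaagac
Hspa1b, chr17:34959269-34959368, minus strand: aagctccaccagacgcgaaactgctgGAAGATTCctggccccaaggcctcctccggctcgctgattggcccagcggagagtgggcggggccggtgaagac
Hspb1, chr5:135887789-135887888, plus strand: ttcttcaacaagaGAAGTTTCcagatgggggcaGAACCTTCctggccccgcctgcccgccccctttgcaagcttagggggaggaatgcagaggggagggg
Hspb6, chr7:30553171-30553270, plus strand: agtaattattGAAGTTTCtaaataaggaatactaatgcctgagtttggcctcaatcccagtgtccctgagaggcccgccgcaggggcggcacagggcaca
Dnaja4, chr9:54699429-54699528, plus strand: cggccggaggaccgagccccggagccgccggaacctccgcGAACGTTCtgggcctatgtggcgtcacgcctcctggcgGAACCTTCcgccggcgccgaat
Dnajb6, chr5:29735768-29735867, plus strand: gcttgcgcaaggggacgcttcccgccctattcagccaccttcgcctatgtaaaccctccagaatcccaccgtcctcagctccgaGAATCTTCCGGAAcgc

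The stretches of Hspa1a and Hspa1b are the same base for base, and of the 250 bases before the start 247 (98.8%) are identical. Counted from the start, their element begins at position -104. Hspb1 holds elements at -117 and -97, Hspb6 at -120 in the promoter shown, and Dnaja4 at -90 and -52. In Dnajb6 the capitals are the 3-unit form. Of the 13 genes with an element, 10 had a log2 fold change below 0, with a median of -0.17, and the groups were apart in 5 that were lower and 1, Dnajb6, that was higher. Of the 34 tested genes with a promoter entry and no element, 20 were below 0, with a median of -0.02, and 10 were lower and 6 higher without overlap. Among all genes tested, 14.4% were lower and 15.8% higher without overlap, and the difference between genes with and without an element was not tested. Hspa1l belongs to these 34. A match of letters is a description of the sequence and does not show binding.

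Of the list of heat-inducible genes, 10 were below 0 and 2, Hspa8 and Dnajb4, above it. The list held 12 cytosolic genes, some of which are also made at all times (Hspa8 and Hsp90ab1). They were Hspa1a, Hspa1b, Hspa8, Hsph1, Hspa4l, Hsp90aa1, Hsp90ab1, Hspb1, Hspb8, Dnaja1, Dnajb1 and Dnajb4. None was called, 3 were lower and 1 higher at an unadjusted p of 0.05 or less, and the median log2 fold change was -0.12. Among all genes tested, 5.33% were lower and 6.57% higher at that p. The 3 lower genes include Hspa1a and Hspa1b, whose 2 values should be read together. Their summed FPKM overlapped, with 1191 to 1349 in WT control and 1257 to 1315 in skmNrip1-/-. The classic DNAJ partner of inducible Hsp70, Dnajb1, had 2.60, 2.66 and 2.60 FPKM in WT control and 2.52 and 2.54 FPKM in skmNrip1-/-. Although its groups did not overlap, the log2 fold change was only -0.05 (SE 0.13). Hsp90aa1, the inducible cytosolic Hsp90, had 12.3, 17.5 and 14.0 FPKM against 15.5 and 12.1 FPKM. Hsph1, the Hsp110 gene, had 29.8, 23.7 and 19.5 FPKM against 20.1 and 22.5 FPKM (-0.17, SE 0.18). In both genes the groups overlapped. Hsp90ab1, the constitutive cytosolic Hsp90 and the third most abundant gene, had 452, 385 and 408 FPKM against 415 and 404 FPKM, with a log2 fold change of -0.02 (SE 0.12, adjusted p = 0.975).

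Other Hsp70 genes were near 0 with the exception of Hspa12a, a distant relative of the family. Hspa12a had 1.76, 2.83 and 1.51 FPKM in WT control and 2.97 and 2.99 FPKM in skmNrip1-/- (0.58, SE 0.26, adjusted p = 0.462). The skmNrip1-/- libraries were just above WT control replicate 2, and the controls were spread widely. Hspa4, an Hsp110-type exchange factor, was at 0.17 (SE 0.12), while Hspa2, Hspa4l, Hspa13 and Hspa14 were between -0.03 and -0.02 and Hspa12b at -0.11. Hspa4l was the least abundant Hsp70 gene, and WT control replicate 3 (1.07 FPKM) was apart from the other 4 libraries (0.539 to 0.786 FPKM).

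Of the 6 small heat shock genes known from muscle, all had a log2 fold change below 0, with a median of -0.25, and none was called. Their summed FPKM overlapped, with 1147 to 1974 in WT control and 1067.5 to 1164 in skmNrip1-/-, and the median deviation of the list was lowest in WT control replicate 2 (-0.34, against -0.21 and -0.30 in skmNrip1-/-). Hspb1, encoding Hsp25, which protects actin filaments, had 182, 127 and 188 FPKM in WT control and 127 and 107 FPKM in skmNrip1-/- (-0.49, SE 0.19, adjusted p = 0.397). WT control replicate 2 (126.64 FPKM) and skmNrip1-/- replicate 1 (126.59 FPKM) were almost equal, so its groups were barely apart. Hspb6, the most abundant chaperone gene of the set, had 735, 672 and 1177 FPKM against 641 and 574 FPKM (-0.46, SE 0.25, adjusted p = 0.538). Hspb7, found in heart and skeletal muscle, had 188, 154 and 385 FPKM against 195 and 199 FPKM (-0.18, SE 0.36). Hspb8, which works with Bag3 in chaperone-assisted autophagy, had 151, 105 and 110 FPKM against 107 and 94.5 FPKM (-0.26, SE 0.18). Hspb2 had 99.2, 74.2 and 93.5 FPKM against 75.8 and 73.8 FPKM (-0.24, SE 0.14), and its partner Hspb3 had 25.6, 14.8 and 19.7 FPKM against 18.6 and 18.8 FPKM (-0.06, SE 0.22). In these 3 genes and in Hspb7 the groups overlapped.

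WT control replicate 3 stood apart in several of these genes. It was the highest library in Hspb1, Hspb6, Hspb7 and Dnaja4 and in the related chaperone Cryab, which encodes alpha B-crystallin and had 665, 472 and 940 FPKM in WT control and 571 and 542 FPKM in skmNrip1-/-. Without it, the log2 fold change of Hspb6 was -0.21, that of Hspb7 turned to 0.21, and that of Cryab was -0.01. The summed FPKM of the 9 slow and oxidative fiber markers was 1451 in the same library, against 362 and 510 in the other controls and 514 and 557 in skmNrip1-/-, most of it from Myh2, the myosin heavy chain of type 2A fibers, with 1102 FPKM in that library. None of these 9 markers was listed at 0 in any library. Its part in the small heat shock values was not tested. Hspb2 and Cryab lie head to head on chromosome 9, and their annotated spans overlap on opposite strands (50751078 to 50752354 and 50751325 to 50756636 on GRCm38), so fragments in the shared stretch cannot be told apart. Hspb11, which carries the family name but works in intraflagellar transport, had 4.98, 2.80 and 3.40 FPKM against 5.69 and 3.93 FPKM (0.38, SE 0.27), with overlapping groups.

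The DNAJ proteins were grouped by the place in the cell where they work. On the deposited scaling the 5 genes of the mitochondrial list all had a log2 fold change above 0, with a median of 0.33. After rescaling to TPM, Dnajc11 and Dnajc30 were below 0 and the median was 0.03. The list was set by hand and may leave out other mitochondrial DNAJ genes. None was called, and 2 had an unadjusted p of 0.05 or less, which 6.57% of all genes tested reached on the higher side. Dnaja3, encoding Tid1, the partner of mitochondrial Hsp70 in the matrix, had 43.5, 50.2 and 44.2 FPKM in WT control and 61.0 and 59.5 FPKM in skmNrip1-/- (0.39, SE 0.11, adjusted p = 0.249). On the deposited scaling its groups were separated by more than the range within either. After rescaling to TPM they overlapped, and the log2 fold change was 0.09. Dnajc15, a cochaperone of the inner membrane import motor, had 12.1, 9.50 and 9.93 FPKM against 14.8 and 12.3 FPKM (0.37, SE 0.15, adjusted p = 0.408). Here skmNrip1-/- replicate 2 (12.31 FPKM) was barely above WT control replicate 1 (12.07 FPKM). Dnajc28 had 9.92, 14.4 and 12.3 FPKM against 15.1 and 15.2 FPKM (0.33, SE 0.17). Dnajc30, which binds the ATP synthase, was at 0.18 (SE 0.12) and Dnajc11, a component of the cristae-organizing complex, at 0.11 (SE 0.17), both with overlapping groups. Summed over the 5 genes on the deposited scaling, the FPKM were 98.5 to 112 in WT control and 124 to 136 in skmNrip1-/-. The FPKM of all genes also summed higher in both skmNrip1-/- libraries than in any WT control library. The sum of the 5 genes was not rescaled to TPM, but after that rescaling none of the 5 was higher without overlap.

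The list of other chaperones outside the naming rule held genes on both sides of 0, with 5 of 8 above it, and the following mitochondrial ones were picked from it after their values were seen. Their values are on the deposited scaling, and rescaling to TPM lowers the median of all genes by more than the log2 fold change of Hspe1 or Clpb. Hspd1, encoding Hsp60 of the matrix, had 100.2, 127 and 110.04 FPKM in WT control and 155 and 142 FPKM in skmNrip1-/- (0.40, SE 0.13, adjusted p = 0.307). Trap1, the mitochondrial Hsp90, had 60.4, 62.8 and 59.2 FPKM against 80.4 and 74.5 FPKM (0.35, SE 0.10, adjusted p = 0.256). On the deposited scaling the groups were apart in both genes, and in Hspe1, encoding Hsp10, they overlapped (0.18, SE 0.13). Whether Hspd1 and Trap1 stay apart after rescaling to TPM was not examined. That rescaling moved the median of all genes to -0.29 and left 2.8% of all genes higher without overlap, against 15.8% as deposited. Clpb, a disaggregase of the intermembrane space, had 29.2, 34.6 and 32.8 FPKM against 37.4 and 36.4 FPKM (0.20, SE 0.11). Of the 8 genes tested in the list of other chaperones, 2 were higher and 1 lower at an unadjusted p of 0.05 or less, and 0 were called by limma. Among all genes tested, 6.57% were higher and 5.33% lower at that p.

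The endoplasmic reticulum list held 12 genes, of which 8 were below 0 and 4 above, with a median of -0.05 and none at an unadjusted p of 0.05 or less. In 5 of the 12 both skmNrip1-/- libraries were below every control, against 14.4% of all genes tested, and this difference was not tested. Hsp90b1, encoding Grp94, the Hsp90 of the reticulum, had 38.9, 40.6 and 38.3 FPKM in WT control and 33.3 and 34.7 FPKM in skmNrip1-/- (-0.21, SE 0.10, adjusted p = 0.468). Dnajb9, which encodes ERdj4, had 19.9, 22.7 and 22.1 FPKM against 18.4 and 18.2 FPKM (-0.23, SE 0.11), and Dnajb11, encoding ERdj3, had 22.2, 18.6 and 20.9 FPKM against 18.0 and 16.8 FPKM (-0.24, SE 0.12). Dnajb12, anchored in the membrane of the reticulum, was at -0.19 (SE 0.10) and Dnajc3, encoding p58IPK, at -0.13 (SE 0.11). Dnajc25 went the other way, with 3.06, 3.39 and 3.26 FPKM against 3.66 and 3.84 FPKM (0.21, SE 0.12). The 12 genes summed to 134 to 140 FPKM in WT control and 123 to 124 FPKM in skmNrip1-/-. The median deviation of the list from the control mean overlapped between the groups, at -0.083, 0.071 and 0.028 on the log2 scale in WT control and -0.12 and -0.016 in skmNrip1-/-. Hyou1, an Hsp110-type chaperone of the same compartment that is outside the naming rule, had 6.18, 7.69 and 7.60 FPKM against 5.76 and 5.32 FPKM (-0.36, SE 0.14, adjusted p = 0.389).

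**Figure D4:**
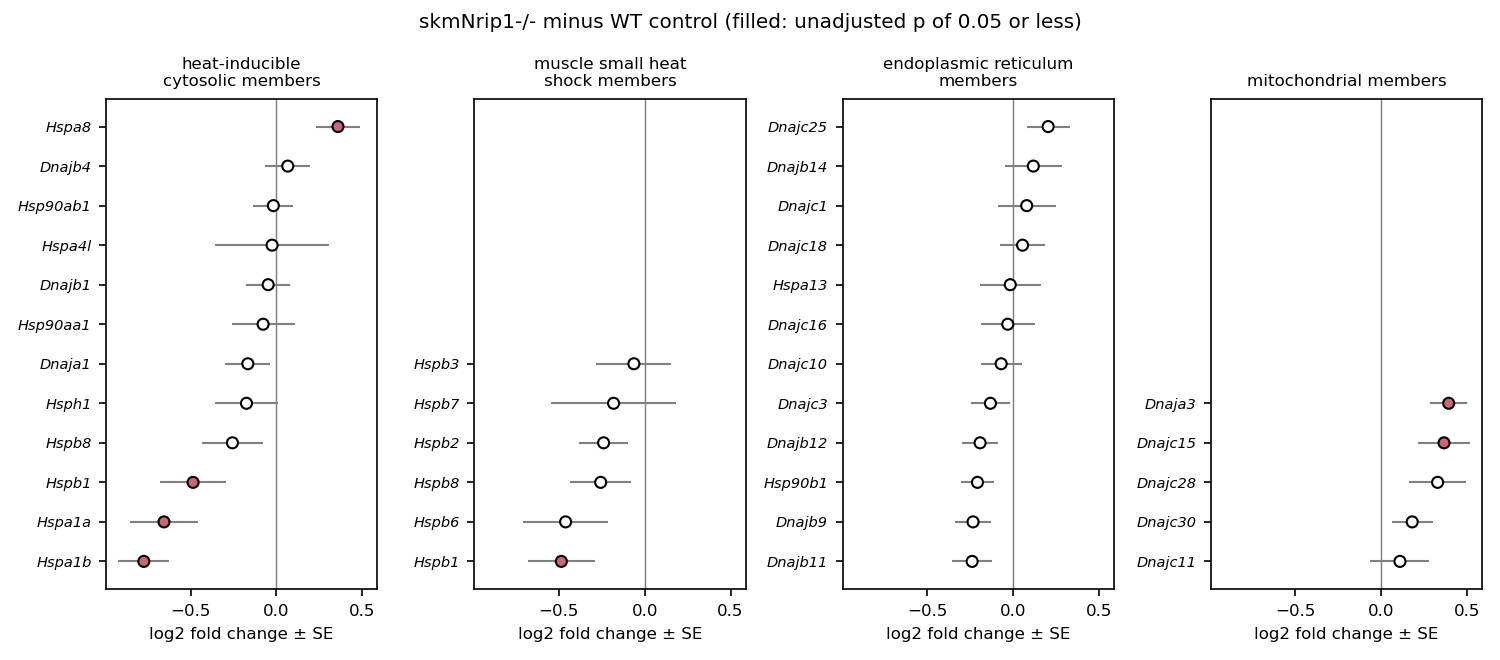
Log2 fold change with SE (skmNrip1-/- minus WT control) of the genes in the heat-inducible, muscle small heat shock, endoplasmic reticulum and mitochondrial lists, filled where the unadjusted p was 0.05 or less. On the deposited scaling plotted here, all 5 mitochondrial genes are right of 0 (2 of them left of it after rescaling to TPM) and all 6 small heat shock genes left of it, whereas the other lists hold genes on both sides.

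Of the other DNAJ genes, most of them cytosolic, Dnaja4 and Dnajc27 had the log2 fold changes farthest from 0. Dnaja4, an inducible Hsp70 partner, had 57.6, 57.2 and 88.7 FPKM in WT control and 51.6 and 49.1 FPKM in skmNrip1-/- (-0.40, SE 0.20, adjusted p = 0.517), and its log2 fold change was -0.19 without WT control replicate 3. Dnaja2, the most abundant DNAJ gene, had 135, 158 and 121 FPKM against 161 and 147 FPKM (0.17, SE 0.14), with overlapping groups. Dnajb6, which keeps polyglutamine proteins from aggregating and is mutated in a limb girdle muscular dystrophy, had 53.1, 54.7 and 54.1 FPKM against 58.3 and 56.8 FPKM (0.09, SE 0.09). Dnajb2 was at -0.24 (SE 0.13) and Dnajb5 at -0.11 (SE 0.13), and Dnajb4 was at 0.07 (SE 0.13). Dnajc27 had 22.1, 29.5 and 23.8 FPKM against 29.2 and 34.3 FPKM (0.34, SE 0.15, adjusted p = 0.459), but WT control replicate 2 was above skmNrip1-/- replicate 1. At the other end, Dnajc4 had 19.6, 13.9 and 15.6 FPKM against 13.9 and 12.8 FPKM (-0.28, SE 0.16), with skmNrip1-/- replicate 1 (13.85 FPKM) just under WT control replicate 2 (13.89 FPKM). Of the vesicle genes, Dnajc5, the cysteine string protein, was at 0.10 (SE 0.21) and Dnajc13, which acts at endosomes, at 0.17 (SE 0.12).

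Cochaperones and regulators outside the naming rule were examined in the same fit, and limma called none of them. At an unadjusted p of 0.05 or less, 6.57% of all genes tested were higher and 5.33% lower. Of 30 Hsp70 and Hsp90 cochaperones, 2 were higher and none lower at an unadjusted p of 0.05 or less, with a median of -0.03. These were Bag3, the exchange factor that joins Hsp70 to Hspb8 (46.4, 49.2 and 53.4 FPKM in WT control and 65.6 and 61.7 FPKM in skmNrip1-/-, log2 fold change 0.36, SE 0.11, adjusted p = 0.281), and Tomm70a, the receptor of the outer mitochondrial membrane to which Hsp70 and Hsp90 deliver precursors (0.30, SE 0.13, adjusted p = 0.42). Of the 14 subunits of the CCT chaperonin and prefoldin, 1 was higher, Pfdn4 (8.48, 6.74 and 6.62 FPKM against 10.9 and 9.72 FPKM, 0.50, SE 0.15, adjusted p = 0.273), and the median was 0.01. Hsf1, the main regulator of the heat shock response, had 21.6, 19.0 and 19.6 FPKM in WT control and 19.0 and 18.8 FPKM in skmNrip1-/- (-0.08, SE 0.11), with overlapping groups. Of the 4 genes tested in the list of heat shock factors and their binding proteins, only Hsf4 reached an unadjusted p of 0.05 or less, on the lower side (4.76, 3.47 and 4.02 FPKM against 3.03 and 2.73 FPKM, -0.48, SE 0.17, adjusted p = 0.336).

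Other sets of genes differed between the libraries alongside these values. On the deposited scaling, all 5 blood markers, hemoglobin genes or Alas2, were above 0, and 3 had an unadjusted p of 0.05 or less. That p was reached on the higher side by 6.57% of all genes tested. The summed FPKM of the blood markers was 511 to 764 in WT control and 827 to 996 in skmNrip1-/-, with none at 0 in any library. This sum was not rescaled to TPM. Summed over all genes, the FPKM were also higher in both skmNrip1-/- libraries than in any WT control library. Immediate early genes respond within minutes to handling and other stimuli. Of the 14 tested, 3 were higher (Fos, Egr1 and Ier3) and 1 lower (Jund) at an unadjusted p of 0.05 or less. Among all genes tested, 6.57% were higher and 5.33% lower at that p. The summed FPKM of the immediate early genes was 170 to 183 in WT control and 161 to 182 in skmNrip1-/-. Of the 9 fast glycolytic fiber markers, 8 were below 0, and 1, Actn3, was lower at an unadjusted p of 0.05 or less. Their summed FPKM was 79437 to 114470 in WT control and 73270 to 76538 in skmNrip1-/-. Also below 0 were 5 of 6 skeletal muscle, 4 of 4 nerve and Schwann cell, 5 of 7 endothelium and 5 of 9 slow and oxidative fiber markers. By contrast, 4 of 5 fibroblast and 2 of 3 fat markers were above it. The part of these differences in the chaperone values was not tested.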

How the data were processed

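RNA-seq libraries were prepared with the NEBNext Ultra RNA kit and quantified by the authors with Salmon 1.10.2 on mm10. The authors deposited FPKM per gene and library in 1 table, and how they computed the FPKM is not stated. The table also holds the log2 fold changes and adjusted p-values of their DESeq2 1.44.0 comparison, which were not used. Libraries were grouped by their labels. Genes were fitted with limma 3.58.1 (lmFit, eBayes with trend) in R 4.3.3 on log2(FPKM + 0.1), and the remaining steps used Python 3.11.15, pandas 2.3.3, numpy 2.4.6 and matplotlib 3.10.9. The fit was tested on simulated data in which 200 genes were changed. It called 54 of 96 genes changed by 1 log2 unit and 93 of 104 changed by 2, with 6 false calls. DESeq2 on counts, the method of the study, was not run because FPKM are not counts. Positions are from GENCODE M21 (GRCm38). All 62 gene IDs matched.

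The members and lists were chosen with earlier results of these data known. Named genes are the heat-inducible and muscle small heat shock lists, the 10 members with the highest mean FPKM, those with an unadjusted p of 0.05 or less, the 5 largest differences in each direction, and Cryab, Bag3, Hsf1 and Nrip1. Other genes were named after their values were seen.

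As alternatives, the pseudocount was set to 1 and to 0.01, and the minimum on mean FPKM was dropped or set to 1. Libraries were rescaled to TPM or by median of ratios, and eBayes was run without its trend and with robust estimation. The replicate number was added as a block and each library was left out in turn. Calls were repeated without the fold threshold and with adjusted p cut at 0.01.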

Additional observations from a re-analysis of the deposited data

How the results depend on the processing

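No chaperone gene was called under any alternative tried. Among the 39 members with values under each alternative, the adjusted p of Hspa1b came closest to the threshold, with 0.124 as reported and 0.0531 to 0.547 over the alternatives. The median log2 fold change of the members was -0.03 as reported, -0.055 with no minimum on mean FPKM, -0.32 after rescaling to TPM, and -0.075 to -0.013 when 1 library was left out. Members higher without overlap numbered 8 as reported, 0 after rescaling to TPM and 11 to 13 with 1 WT control library left out. Those lower numbered 15, 32 and 18 to 19. Fewer libraries make groups easier to separate in any gene. The share over all genes was not computed with a library left out, so these counts are not a result about the members. Members higher at an unadjusted p of 0.05 or less numbered 3 as reported, 0 after rescaling to TPM and 1 with the replicate block. With 1 WT control library left out they numbered 1 (without replicate 3) to 5 (without replicate 2). Those lower numbered 4 as reported and 23 of 58 after rescaling to TPM. The same p was then reached by 29.1% of all genes on the lower side and 1.33% on the higher. With 1 WT control library left out, the lower members numbered 3 (without replicate 3) to 9 (without replicate 2). The share of all genes at that p was not computed with the replicate block or with a library left out. Rescaling to TPM left 7 of the 58 members above 0, against 22 as reported. Of the 39 it turned Dnaja2 to -0.13, Dnajb4 to -0.23, Dnajb6 to -0.21, Dnajc7 to -0.22, Dnajc11 to -0.19, Dnajc13 to -0.12, Dnajc25 to -0.086 and Dnajc30 to -0.12. It left the mitochondrial list at a median of 0.03, which is above the shifted median of all genes. Leaving out 1 library at a time changed the sign of 6 of the 39 members, whose log2 fold changes then ranged from -0.45 to 0.21 for Hspb7, -0.26 to 0.13 for Hspb3, -0.20 to 0.24 for Hspa4l, -0.26 to 0.10 for Hsp90aa1, -0.070 to 0.046 for Hsp90ab1, and -0.070 to 0.29 for Dnajc11. In all, 20 of the alternative values of the 39 members changed sign and 525 did not. This tally does not measure robustness, since several settings could not change a sign. The minimum on mean FPKM and the eBayes options leave a log2 fold change as it is, and median of ratios hardly alters it. The replicate block gives the same estimates as leaving out WT control replicate 3. Where a library left out leaves 1 for skmNrip1-/-, that library is assumed to vary like the others.

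The groups share 2 replicate numbers, but same-numbered libraries come from different mice. Their deviations from the group means correlated at 0.06 and 0.10, so no pairing was seen. The deviations of the 2 skmNrip1-/- libraries are mirror images of each other, which limits this check. Replicate 3 exists only in WT control, so the replicate block takes that library out of the estimate. With the replicate block, no member was called, Hspa4l turned to 0.24 and Hspb7 to 0.21, as without WT control replicate 3. Depth is unknown, so the counting error of low genes such as Hspa1a, with at most 2.22 FPKM, cannot be given.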
